A study of Rattus norvegicus with 18 samples.

Results

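The oculomotor nucleus of 18-month-old F344BN rats was set against the spinal cord of F344BN rats of the same age. The comparison holds 6 of the 18 arrays of the study, chosen by their labels alone: 3 arrays of oculomotor nucleus and 3 of spinal cord at 18 months. The study measured both tissues at 6, 18 and 30 months with 3 arrays per tissue and age, and asked how age alters them. Each sample of total RNA combined tissue from 4 animals and was hybridised to its own Affymetrix RA230 array. No treatment or allele is given for any group, and sex, the level of the cord and the way the nucleus was cut out are not given in the sources used here. Since tissue was pooled, p-values measure the spread between pools of RNA, not between animals, and whether the nucleus and cord pools came from the same rats is not given either.

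Most eye movement is driven from the oculomotor nucleus, a cluster of cholinergic motor neurons in the midbrain, through muscles that turn the eye and lift the lid. The nucleus lies beside the serotonin neurons of the raphe and close to the dopamine neurons of the ventral midbrain. The spinal cord serves limb and trunk with its own motor neurons, receives peptide-bearing sensory fibres in its dorsal horn, and is wrapped in meninges and nerve roots. The 2 kinds of motor neuron are often compared because those of the eye muscles are relatively spared in motor neuron disease while those of the cord are lost. In whole tissue, fewer cells of a type and less RNA per cell cannot be told apart.

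The arrays were alike in overall signal. Median signal lay between 256.0 and 260.2 on the 3 oculomotor arrays and between 261.9 and 265.9 on the 3 cord arrays, and 19.9% to 20.6% against 19.1% to 21.0% of probe sets lay at or under the floor of 66.4. The ratio of 3' to 5' signal, a measure of RNA integrity, was 1.75 to 1.89 against 1.67 to 1.98 for hexokinase and 1.01 to 1.02 against 1.06 to 1.14 for GAPDH. Cord replicate 3 lay at -14.99 on the main principal component of the group-centred values, which held 24.1% of the variance, where the other 5 arrays of 18 months lay between -1.62 and 9.18. Over the 18 arrays that component ran from -18.75 to 16.07, and 4 arrays, cord replicate 3 among them, lay below -5. Without that array 2343 probe sets passed the test, of which 2149 also passed with it and in the same direction.

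Of 11070 probe sets with enough signal to be tested, 2727 (24.6%) differed between the tissues at an adjusted p under 0.05 (limma, Benjamini-Hochberg adjustment). In the oculomotor nucleus 1246 (11.3%) were higher and 1481 (13.4%) were lower. Differences over 2-fold were called for 521 probe sets (4.71%), 208 higher (1.88%) and 313 lower (2.83%), and those over 4-fold for 21 higher (0.19%) and 48 lower (0.434%). Against a fold of 1.5 itself, limma's test called 333 (3.01%), and 929 (8.39%) met a rule like the study's, with no overlap and an average change over 1.7-fold. The 3 arrays of one tissue did not overlap with the 3 of the other in 4795 probe sets (43.3%). With 1 probe set per gene, 2009 of 7946 genes were called (25.3%), of which 864 were higher (10.9%) and 1145 lower (14.4%), and the median log2 difference over all genes was -0.014. These shares are the background for every count of genes below. The gene lists were chosen with earlier results of these data known, so their counts are a description and not a test. The call rate rose with signal, from 17.8% among the dimmest of 5 equal bins of probe sets to 30.6% among the brightest. Signals, and so levels, are compared for 1 probe set between arrays and never between genes.

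**Figure D1:**
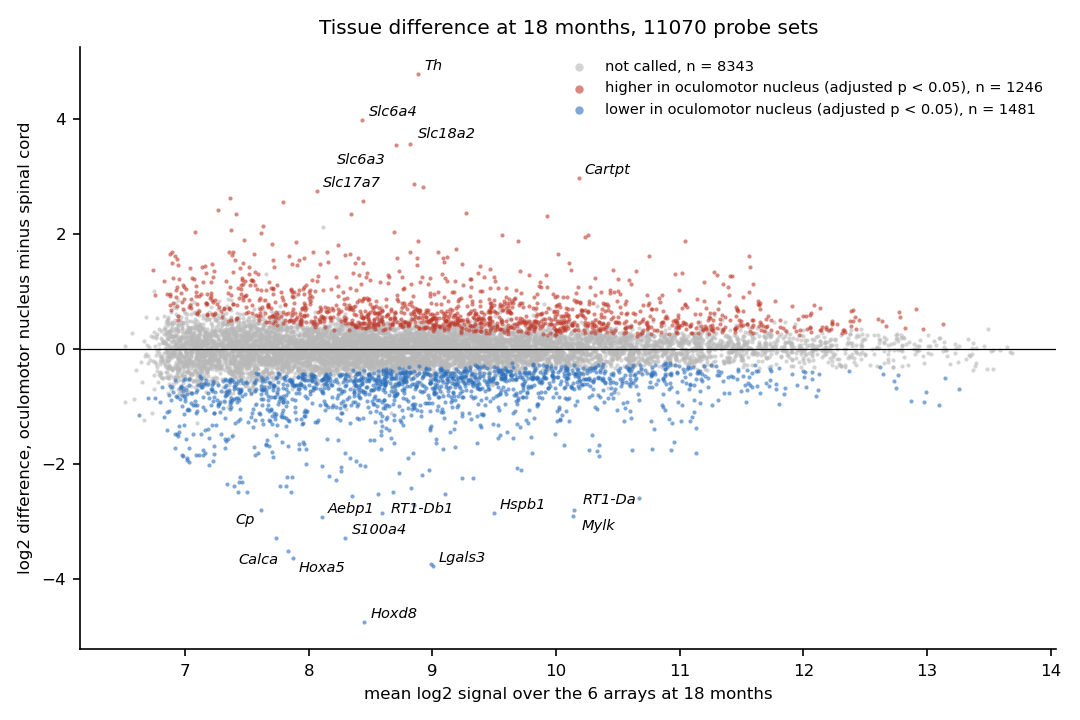
Log2 difference at 18 months (oculomotor nucleus minus spinal cord, y axis) against the mean log2 signal of the 6 arrays (x axis) for 11070 probe sets, with called probe sets in red (higher in oculomotor nucleus, 1246) and blue (lower, 1481). The transmitter genes Th, Slc6a4, Slc18a2 and Slc6a3 sit at the top and Hoxd8, Lgals3, Hoxa5 and Calca at the bottom.

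Hox genes, which specify position along the hindbrain and cord and are silent in the midbrain, had 7 list members on the array, of which 2 had enough signal to be tested, and both fell in the oculomotor nucleus. Hoxd8 gave signals of 62.9, 55.7 and 69.9 in the nucleus, against 1692, 2106 and 1668 in the cord, a log2 difference of -4.75 ± 0.20 (SE, n = 3 each, adjusted p = 2.25e-12), and 2 of the 3 nucleus arrays were at the floor. Hoxa5 had 16.1, 42.7 and 8.4 against 935.0, 787.8 and 756.1, and because all 3 nucleus arrays were at the floor it was at least 12.4-fold lower (adjusted p = 2.74e-11). Of the 7 members 5 were at the floor on all nucleus arrays and 1 on all cord arrays. Below the filter, Hoxb7 had 12.3, 6.1 and 15 in the nucleus, against 186.7, 156.9 and 179.7 in the cord, with no overlap and no test.

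Transcription factors of forebrain and midbrain went the other way. Of 25 list members on the array, 11 were tested, 5 rose in the oculomotor nucleus and 1 fell, with a median log2 difference of 0.50. Tcf7l2, a Wnt effector strongly expressed in thalamus and midbrain, had 1358, 1347 and 1527 in the nucleus, against 274.1, 240.4 and 307.2 in the cord (log2 difference 2.37 ± 0.13, adjusted p = 1.31e-10). Barhl1 rose by 1.42 ± 0.32, Tal1 by 1.04 ± 0.16 and Gata2 by 1.00 ± 0.20 on the log2 scale; Tal1 and Gata2 specify GABA neurons of the midbrain. Nr4a2 (Nurr1), needed for dopamine neurons, had 195.0, 176.6 and 201.1 against 102.7, 87.4 and 113.6 (0.92 ± 0.21, adjusted p = 0.00269). Pbx3, a partner of Hox proteins, was the member that fell (-0.69 ± 0.08), with 2846, 2648 and 2797 in the nucleus, against 4410, 4546 and 4457 in the cord. These 6 factors were named because they were called, and on each the arrays of the tissues did not overlap. The same held for 43.3% of all probe sets tested.

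Cholinergic motor neuron genes were lower in the oculomotor nucleus, the tissue named for its motor neurons. Of 18 list members on the array, 12 were tested, 7 fell and 1 rose, with a median log2 difference of -0.87. Calca, Calcb and Prph, which are also genes of sensory neurons, were among those that fell. They are counted again below, Calca and Calcb with the neuropeptides and Prph with the general neuronal genes. Chat, choline acetyltransferase, gave signals of 105.6, 96.8 and 139.2 in the nucleus, against 438.4, 316.0 and 334.5 in the cord (-1.68 ± 0.22, adjusted p = 1.21e-05). Slc18a3, which loads acetylcholine into vesicles, had 176.5, 147.1 and 199.8 against 792.6, 790.1 and 573.5 (-2.04 ± 0.24), and Slc5a7, the choline transporter, had 408.7, 395.8 and 471.6 against 1088, 939.0 and 1159 (-1.32 ± 0.17). These 3 transcripts, for acetylcholine synthesis, vesicle loading and choline uptake, were lower on every nucleus array than on any cord array. The same held for 21.8% of all probe sets tested. Prph (peripherin), the intermediate filament of motor and sensory neurons, had 486.3, 436.8 and 451.3 against 1215, 1045 and 1119 (-1.30 ± 0.11, adjusted p = 7.6e-08). The motor neuron transcription factor Isl1 did not reach the filter, with 80.5, 55.9 and 50.6 in the nucleus, against 98.5, 150.5 and 62.9 in the cord. Chat reached 139.2 at most on the nucleus arrays, against a floor of 66.4. The member that rose was Chrna4, a nicotinic receptor subunit of dopamine and other midbrain neurons (0.65 ± 0.21, adjusted p = 0.0253), and it lost its call when any of 4 single arrays was left out, at adjusted p = 0.0628 to 0.103.

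Dopamine and serotonin neuron genes held the largest rises. Of 21 list members on the array, 16 were tested, 9 rose and none fell, 8 of them over 2-fold, and the median log2 difference was 0.96. Th, tyrosine hydroxylase, the rate-limiting enzyme of dopamine synthesis, gave signals of 2237, 2526 and 2701 in nucleus samples, against 77.1, 120.6 and 79.0 in cord samples, a 27.5-fold difference (log2 4.78 ± 0.22, adjusted p = 1.61e-11). Slc6a3, the dopamine transporter, had 1334, 1521 and 1433 against 125.7, 126.9 and 112.5 (3.55 ± 0.13). Slc6a4, the serotonin transporter, had 1528, 1229 and 1385 against 81.2, 83.0 and 97.2 (3.98 ± 0.16). Transporter transcripts of both dopamine and serotonin neurons were thus higher in the nucleus samples, and the 3 nucleus arrays lay close together. Slc18a2, the vesicular monoamine transporter, had 1661, 1539 and 1470 against 135.7, 119.0 and 137.9 (3.57 ± 0.12), and its other probe set gave 2.87. Ddc, which makes both dopamine and serotonin from their precursors, had 2222, 2134 and 2161 against 445.2, 345.0 and 541.3 (2.31 ± 0.14); its dimmer probe set gave 0.35 with no call. Fev (Pet1), the transcription factor of serotonin neurons, had 433.5, 422.6 and 333.7 against 92.3, 133.1 and 110.3 (1.83 ± 0.18), and Gch1, which makes the cofactor of both hydroxylases, rose by 1.42 ± 0.20. Of the dopamine neuron markers that were not called, Aldh1a1 had 1543, 1642 and 1773 against 1498, 1401 and 1357 (0.22, adjusted p = 0.215), and Pitx3 was at the floor on all 6 arrays. How much tissue around the motor nucleus was taken was not tested.

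The promoters of Th and Slc18a2 are printed because these genes share a short element, as does that of the peptide gene Cartpt, whose values follow. Each window runs from 250 bases before to 50 bases after the start of transcription (RefSeq, build GRCr8), 5' to 3' on the gene's strand, and capitals mark TGACGTCA, the letters of the full cAMP response element, which read the same on both strands. Th lies on the minus strand at chr1:207508169-207508468, Slc18a2 on the plus strand at chr1:268399771-268400070 and Cartpt on the minus strand at chr2:32991186-32991485.
Th: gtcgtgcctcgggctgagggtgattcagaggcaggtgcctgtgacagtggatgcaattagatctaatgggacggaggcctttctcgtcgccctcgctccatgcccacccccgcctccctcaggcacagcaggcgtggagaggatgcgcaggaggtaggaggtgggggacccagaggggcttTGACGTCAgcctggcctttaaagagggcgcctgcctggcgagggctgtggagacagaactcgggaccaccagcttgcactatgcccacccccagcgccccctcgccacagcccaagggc
Slc18a2: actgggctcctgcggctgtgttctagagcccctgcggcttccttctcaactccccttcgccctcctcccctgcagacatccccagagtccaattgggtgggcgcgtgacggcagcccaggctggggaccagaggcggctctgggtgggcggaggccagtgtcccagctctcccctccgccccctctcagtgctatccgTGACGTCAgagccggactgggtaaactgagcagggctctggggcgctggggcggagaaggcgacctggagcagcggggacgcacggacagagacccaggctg
Cartpt: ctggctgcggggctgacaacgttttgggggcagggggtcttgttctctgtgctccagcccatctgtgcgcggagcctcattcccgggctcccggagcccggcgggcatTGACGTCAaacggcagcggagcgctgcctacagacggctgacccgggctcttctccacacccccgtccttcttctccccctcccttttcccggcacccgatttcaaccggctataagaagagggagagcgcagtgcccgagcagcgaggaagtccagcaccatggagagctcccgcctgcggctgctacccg
The match ended 61 bases before the start in Th, 44 bases before it in Slc18a2 and 134 bases before it in Cartpt. These 8 letters occur in 1.91% of the 27453 promoters of the table and in 2.99% of the 6646 promoters that matched a tested gene by symbol. The share was 4.63% of 713 promoters of genes higher in the oculomotor nucleus, 1.29% of 928 of genes lower there and 3.08% of 5005 of genes not called. The letters were chosen after these promoters had been read, so the shares are a description and a match is not evidence of use.

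Neuropeptide genes moved strongly in both directions. Of 31 list members on the array, 26 were tested, 14 rose and 3 fell, with a median log2 difference of 0.44. Cartpt, the precursor of the CART peptide, had 2990, 3023 and 3813 in nucleus samples, against 367.1, 495.6 and 392.6 in cord samples (2.97 ± 0.15, adjusted p = 4.46e-11). CART is made in the Edinger-Westphal nucleus, which adjoins the oculomotor nucleus, and Ucn (urocortin), another peptide of that nucleus, had 216.1, 220.5 and 165.8 against 97.7, 133.5 and 110.4 (0.82 ± 0.21, adjusted p = 0.00648). The members that fell were the peptides of sensory and motor neurons Calca and Calcb and, with them, Npy. Calca, the gene of calcitonin and the peptide CGRP, had 69.5, 49.7 and 48.5 against 863.3, 641.4 and 837.9 (-3.52 ± 0.17, adjusted p = 2.27e-11), with 2 of 3 nucleus arrays at the floor. Its second probe set with enough signal gave -1.41 (adjusted p = 0.000119). Calcb had 65.2, 60.5 and 66.9 against 236.5, 175.7 and 254.8 (-1.72 ± 0.18), again with 2 of 3 nucleus arrays at the floor, and Npy had 722.1, 687.5 and 713.1 against 1369, 1514 and 1625 (-1.08 ± 0.13).

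One peptide outside the lists varied widely between the nucleus arrays. Pmch, the melanin-concentrating hormone precursor of the lateral hypothalamus, had 347.1, 997.8 and 1756 in nucleus samples, against 153.8, 150.9 and 124.2 in cord samples (2.57 ± 0.68, adjusted p = 0.00796). All nucleus arrays were above all cord arrays, but without oculomotor replicate 3 the difference was 2.05 with an adjusted p of 0.0563.

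**Figure D2:**
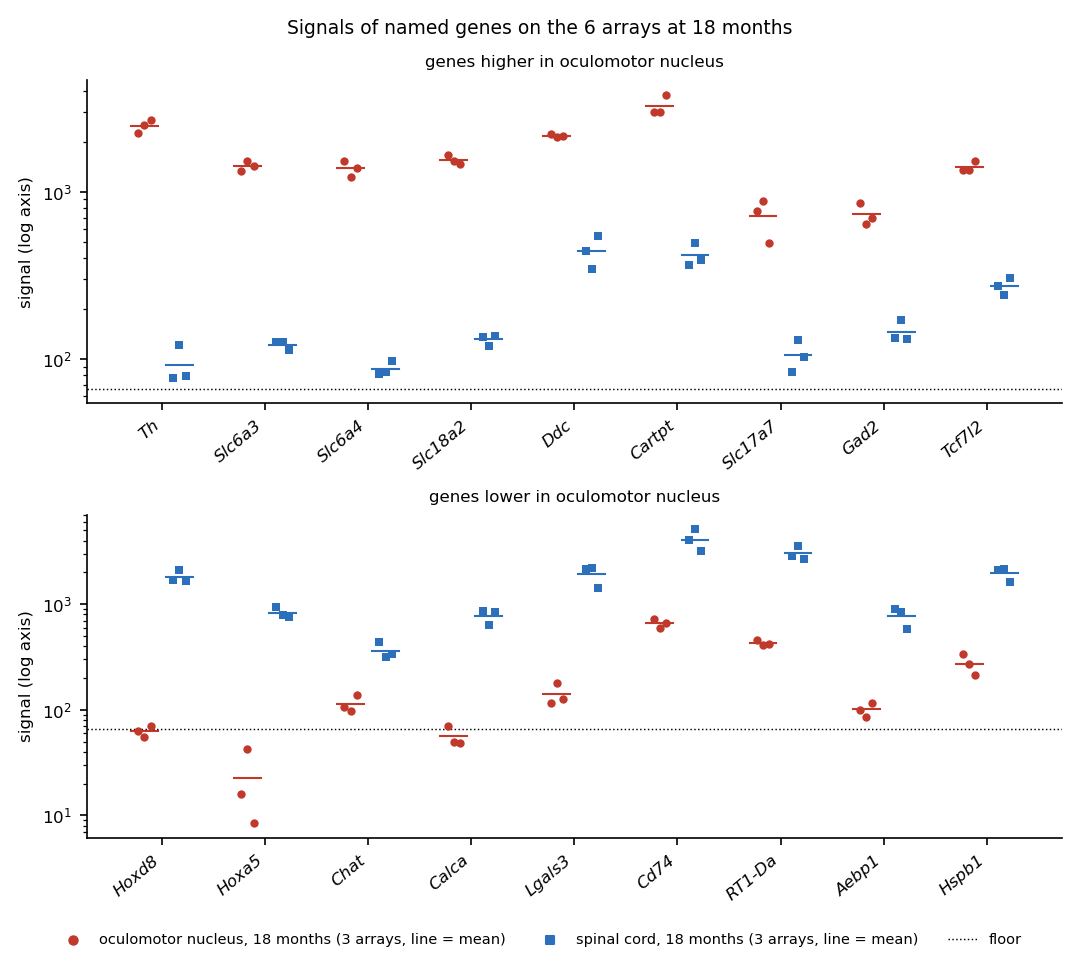
Signals (log axis) of named genes on the 3 oculomotor nucleus arrays (red circles, left of each pair) and the 3 spinal cord arrays (blue squares, right) at 18 months, with the mean as a line and the floor of 66.4 dotted. The tissues do not overlap for any gene shown, which was a condition for naming all of them but Chat. The nucleus signals of Hoxa5 lie below the floor on all 3 arrays.

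Every gene of GABA, glycine and glutamate transmission that passed the test was higher in the oculomotor nucleus. For GABA and glycine, 8 of 18 tested members rose, none fell and 10 were not called (22 on the array, median 0.61). Gad2, which makes GABA, had 862.4, 645.6 and 699.5 in the nucleus, against 132.9, 170.0 and 131.7 in the cord (2.34 ± 0.28, adjusted p = 4.21e-06), and Gad1, the other GABA-making enzyme, had 3634, 3485 and 3428 against 1675, 1704 and 1349 (1.17 ± 0.12). Receptor subunits were among the largest rises. Gabrb2, a GABA-A subunit, had 2499, 2290 and 2555 against 650.0, 702.4 and 508.9 (1.99 ± 0.14), and Glra2, a glycine receptor subunit, had 461.7, 381.1 and 408.0 against 115.3, 25.8 and 110.7 (2.13 ± 0.25, 1 cord array at the floor). The other tested probe set gave less, 1.46 for Gabrb2 and 1.22 for Glra2. For glutamate, 10 of 24 tested members rose, none fell and 14 were not called (28 on the array, median 0.48). Slc17a7, the vesicular glutamate transporter VGLUT1, had 765.9, 884.4 and 495.1 against 83.0, 130.0 and 102.8 (2.75 ± 0.48, adjusted p = 0.000247). Slc17a6, the VGLUT2 of brainstem and cord neurons, rose by 0.67 ± 0.10, with 3360, 3510 and 3884 against 2222, 2404 and 2111. Grm2, a presynaptic metabotropic receptor, was at the floor on all 3 cord arrays and was at least 3.22-fold higher in the nucleus. Slc1a3, the astrocyte glutamate transporter GLAST, had 3940, 3900 and 4911 against 1804, 1808 and 1641 (1.27 ± 0.11, adjusted p = 5.06e-08).

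Synaptic release genes rose as a rule and gamma-synuclein fell. Of 28 members on the array, 25 were tested, 14 rose and 1 fell, with a median of 0.47. Vamp2 (synaptobrevin) had 2663, 3128 and 2014 in the nucleus, against 1001, 837.8 and 1193 in the cord (1.36 ± 0.15), Syt5 rose by 1.28 ± 0.14 and Syp (synaptophysin) by 0.82 ± 0.10. Sncg, a synuclein of motor and sensory neurons, had 971.3, 932.9 and 988.9 against 3240, 3091 and 3270 (-1.73 ± 0.10, adjusted p = 6.34e-10). Axonal and general neuronal genes were mixed, with 7 rises and 5 falls among 24 tested (24 on the array, median 0.13). All 3 neurofilament subunits fell. Nefh had 5272, 5949 and 5677 against 8208, 7784 and 8687 (-0.55 ± 0.10), Nefm changed by -0.67 ± 0.15 and Nefl by -0.44 ± 0.13, and Nefl lost its call without any of 3 single arrays, at adjusted p = 0.0583 to 0.116. Gap43, a growth-associated protein of axon terminals, had 4527, 4692 and 5819 against 1946, 1836 and 1794 (1.42 ± 0.11, adjusted p = 2.85e-08). Slc7a3, a cationic amino acid transporter of neurons, was among the 15 largest rises (2.04 ± 0.12). So was Nat8f5, an N-acetyltransferase family member, with 559.7, 536.0 and 514.9 against 110.1, 82.8 and 82.7 (2.56 ± 0.17). Dlg4 (PSD-95) gave 2.04 ± 0.22 on one probe set and 0.63 and 0.25 on the others, the last without a call; on the first of these 2 of 3 cord arrays were at the floor, so that its size depends on the floor.

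Ion channel genes separated by subunit. For sodium, calcium and HCN channels, 8 of 19 tested members rose and 2 fell (28 on the array, median 0.58). Scn2a, a sodium channel of unmyelinated axons and young nodes, had 839.0, 710.4 and 891.9 in the nucleus, against 255.3, 223.7 and 278.1 in the cord (1.69 ± 0.18). Scn3a rose by 1.46 ± 0.17 and Cacnb3, a calcium channel beta subunit, by 1.48 ± 0.15. Scn4b, a beta subunit of fast-firing neurons, had 1456, 1634 and 1300 against 3560, 3263 and 3126 (-1.18 ± 0.12, adjusted p = 5.84e-07), and Scn1a was the other member that fell (-0.45 ± 0.13), with no call without oculomotor replicate 2 or cord replicate 1 (adjusted p = 0.0819 and 0.072). For potassium channels 5 of 28 tested rose and 2 fell (35 on the array, median 0.20), a share of 25.0% that is near the background. Kcnip4 and Kcnd3, the auxiliary and pore subunits of an A-type current, rose by 1.498 ± 0.16 and 1.29 ± 0.13. Kcna1, the axonal channel of juxtaparanodes, had 1075, 967.9 and 1137 against 2579, 2383 and 1619 (-1.02 ± 0.20). Its auxiliary subunit Kcnab2 also fell, by 0.49 on the log2 scale.

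Calcium buffers are of interest because oculomotor neurons are known to be rich in them. Which cells of the samples gave the signals below was not tested. Of 28 members of a list of calcium buffers and pumps on the array, 25 were tested, 10 rose and 1 fell, with a median of 0.26. The list is wider than buffers, and Cbln2 (0.80 ± 0.13) was among the members that rose. Calb1 (calbindin) had 890.1, 841.3 and 1224 in the nucleus, against 437.5, 413.3 and 399.3 in the cord (1.22 ± 0.16, adjusted p = 1.31e-05). Calb2 (calretinin) had 3264, 4783 and 4667 against 2607, 2539 and 2152 (0.79 ± 0.16), and Hpca (hippocalcin) rose by 0.62 ± 0.10. S100a1 was the member that fell, with 831.1, 771.5 and 805.5 against 1280, 1250 and 1342 (-0.69 ± 0.11). Among monoamine, acetylcholine and purine receptors, 5 of 18 tested rose and none fell (36 on the array, median 0.29). That share of 27.8% is near the background of 25.3%. The muscarinic receptor Chrm3 rose by 1.20 ± 0.15 and the serotonin receptor Htr2c by 0.66 ± 0.09. Of these receptors 3 rose without oculomotor replicate 3, cord replicate 1 or cord replicate 3.

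Trophic factors and guidance molecules changed in both directions. Of 30 trophic members on the array, 21 were tested, 3 rose and 5 fell (median -0.18). Cntf, the ciliary neurotrophic factor that Schwann cells and astrocytes make, had 248.8, 289.6 and 277.8 in the nucleus, against 640.1, 496.0 and 536.6 in the cord (-1.03 ± 0.12, adjusted p = 3.8e-06), and Igf2 fell by 1.05 on the log2 scale. The receptors Gfra2, for neurturin, and Ntrk2, for BDNF, rose by 0.84 ± 0.13 and 0.72 ± 0.18. Of 40 guidance and adhesion genes on the array, 33 were tested, 10 rose and 2 fell (median 0.13). Cdh1 (E-cadherin), also found in meninges, had 87.7, 66.5 and 56.8 against 382.6, 375.7 and 178.9 (-2.02 ± 0.29), and the postsynaptic adhesion gene Nlgn1 rose by 0.66 ± 0.12. Without oculomotor replicate 2 the number of guidance genes that rose was 6.

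**Figure D3:**
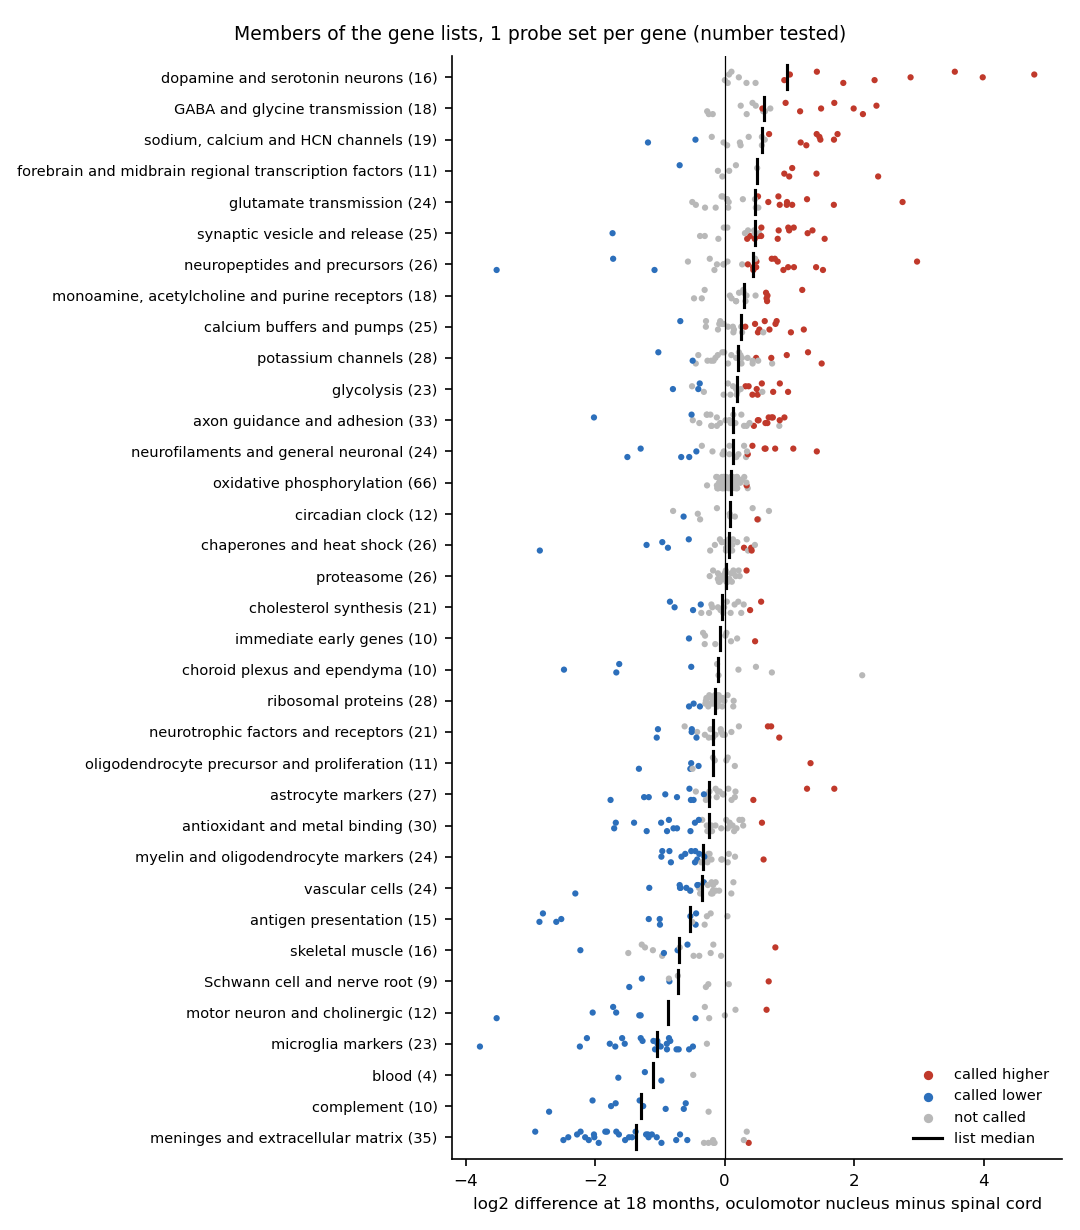
Log2 difference at 18 months (oculomotor nucleus minus spinal cord, x axis) of every tested member of each gene list with at least 4 tested members, coloured by call, with the list median as a black line and the number tested in brackets. Medians run from 0.96 for dopamine and serotonin neurons to -1.38 for meninges and extracellular matrix.

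Astrocyte genes changed in both directions. Of 28 astrocyte markers on the array, 27 were tested, 3 rose and 9 fell (median -0.24). Gfap, the intermediate filament of astrocytes, had 5589, 5641 and 6417 in the nucleus, against 10330, 10640 and 12390 in the cord (-0.92 ± 0.13, adjusted p = 3.12e-05), and Vim (vimentin) had 1079, 1080 and 1017 against 4679, 3454 and 2862 (-1.76 ± 0.20). The members that rose include 2 transporters that clear transmitters. One was Slc1a3, above, and the other was the GABA transporter Slc6a11, with 487.4, 594.4 and 455.6 against 130.7, 120.6 and 247.6 (1.69 ± 0.25). Gja1, the connexin of astrocytes, had 5393, 5510 and 5539 against 5290, 4734 and 5837 (0.06, adjusted p = 0.773). Nes (nestin), another filament gene, had 126.6, 99.2 and 223.5 against 392.9, 353.7 and 231.1, without overlap (-1.17).

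For myelin and oligodendrocytes, 12 of 24 tested members fell and 1 rose (25 on the array, median -0.34), none over 2-fold. Mag, of the inner myelin membrane, had 2882, 3143 and 2530 in the nucleus, against 4167, 4054 and 4817 in the cord (-0.61 ± 0.12, adjusted p = 0.000711), and Cryab, a small heat shock protein of oligodendrocytes, fell by 0.96 on the log2 scale. Mbp, myelin basic protein, had 12220, 12440 and 13950 against 11530, 12080 and 16960, with overlap (-0.05, adjusted p = 0.888). Car2, carbonic anhydrase of oligodendrocytes, was the member that rose (0.60 ± 0.11). Without cord replicate 3 the number of myelin genes that fell was 8. Among precursor and proliferation genes 4 of 11 tested fell and 1 rose (16 on the array). Cspg5 (neuroglycan C) had 1056, 1029 and 1050 against 400.9, 424.1 and 426.0 (1.33 ± 0.11), and the cyclin Ccnd2 fell by 1.32 on the log2 scale.

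Microglia and macrophage markers were lower in the oculomotor nucleus almost throughout: 22 of 23 tested members fell and none rose (24 on the array, median -1.04). The summed signal of the 24 genes was 14230 to 15500 on the nucleus arrays and 25210 to 30990 on the cord arrays, and none was at the floor in all arrays of either tissue. Lgals3 (galectin-3), a lectin of activated microglia, had 116.4, 178.9 and 127.2 in the nucleus, against 2161, 2223 and 1427 in the cord (-3.78 ± 0.27, adjusted p = 7.09e-09). Gpnmb, a glycoprotein of phagocytic microglia, had 307.2, 274.3 and 254.3 against 1708, 1648 and 795.2 (-2.24 ± 0.28), and Fcgr2b, an inhibitory Fc receptor, fell by 2.13 on the log2 scale. Receptors that mark microglia were also lower on every nucleus array. P2ry12 had 609.2, 678.6 and 649.4 against 1102, 1010 and 1131 (-0.74 ± 0.14), Cx3cr1 had 290.2, 296.7 and 263.9 against 420.7, 595.0 and 397.1 (-0.71 ± 0.18; adjusted p = 0.0533 without cord replicate 2), and Csf1r fell by 0.86 on the log2 scale. Ctss (cathepsin S), an abundant microglial protease, was the member with no call, at 4951, 6418 and 4995 against 6165, 6355 and 7165 (-0.27, adjusted p = 0.27). Between 20 and 22 members fell when single 18-month arrays were left out.

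Antigen presentation and complement genes fell with them. For antigen presentation 10 of 15 tested members fell and none rose (18 on the array, median -0.53), and the 4 largest falls were genes of class II. RT1-Da, the class II alpha chain, had 457.6, 411.1 and 418.4 in the nucleus, against 2867, 3539 and 2654 in the cord (-2.81 ± 0.19, adjusted p = 4.61e-09). Cd74, the invariant chain that escorts class II, had 730.6, 595.6 and 668.9 against 4020, 5100 and 3162 (-2.60 ± 0.22). RT1-Db1 and RT1-Bb, beta chains, also fell (log2 differences -2.86 and -2.52); RT1 genes are near copies of each other and probes may be shared between them. For complement 9 of 10 tested members fell and none rose (13 on the array, median -1.28). Serping1, the inhibitor of C1, had 194.0, 170.3 and 178.9 against 1570, 1383 and 763.8 (-2.71 ± 0.23), and C3, the central component, had 857.3, 826.2 and 883.4 against 2912, 3498 and 2359 (-1.75 ± 0.13). C1qa, which microglia make, fell by 1.26 on the log2 scale.

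Promoters of 3 class II genes are printed because these genes fell together and share known elements. The windows are as above (RefSeq, GRCr8), and capitals mark CTGATTGG, an inverted CCAAT called the Y box, and TAGCAAC, the core of the X box, each searched on both strands. RT1-Da lies on the plus strand at chr20:4515165-4515464, RT1-Db1 on the minus strand at chr20:4560113-4560412 and RT1-Bb on the minus strand at chr20:4604069-4604368.
RT1-Da: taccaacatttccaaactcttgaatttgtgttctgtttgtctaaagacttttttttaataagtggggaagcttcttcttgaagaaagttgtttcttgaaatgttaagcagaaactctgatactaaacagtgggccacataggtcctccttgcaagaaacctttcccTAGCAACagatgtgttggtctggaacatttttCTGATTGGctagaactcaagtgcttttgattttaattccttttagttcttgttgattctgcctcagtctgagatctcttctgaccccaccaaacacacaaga
RT1-Db1: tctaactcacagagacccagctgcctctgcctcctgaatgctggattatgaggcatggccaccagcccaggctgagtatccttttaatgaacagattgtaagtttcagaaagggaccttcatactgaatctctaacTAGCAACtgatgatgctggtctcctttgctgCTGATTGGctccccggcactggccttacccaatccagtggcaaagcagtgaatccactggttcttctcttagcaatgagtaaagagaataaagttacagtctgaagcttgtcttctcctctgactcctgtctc
RT1-Bb: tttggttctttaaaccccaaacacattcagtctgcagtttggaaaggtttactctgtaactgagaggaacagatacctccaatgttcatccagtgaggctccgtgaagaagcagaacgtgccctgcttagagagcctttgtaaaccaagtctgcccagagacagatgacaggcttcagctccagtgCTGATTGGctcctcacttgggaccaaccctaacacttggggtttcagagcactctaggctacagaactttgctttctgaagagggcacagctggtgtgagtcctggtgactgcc
The Y box lay in all 3 windows and ended 44 bases before the start in RT1-Da, 75 bases before it in RT1-Db1 and 56 bases before it in RT1-Bb. The X box core lay upstream of it in RT1-Da and RT1-Db1, with 25 and 24 bases between the matches, and its letters were not in the window of RT1-Bb. The Y box letters occur in 3.55% of the 27453 promoters of the table, in 3.93% of promoters of genes higher in the nucleus, in 6.14% of those lower and in 4.84% of those not called. The X box core occurs in 3.54% of the table and in 4.49%, 3.23% and 3.20% of the same 3 classes. As before, the letters were chosen with the promoters in view.

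Meninges and extracellular matrix genes had the lowest median among lists with 4 or more tested members. Of 40 members, all on the array, 35 were tested, 27 fell and 1 rose, 23 of the falls were over 2-fold, and the median was -1.38. Col3a1, a fibrillar collagen, had 115.4, 150.3 and 142.5 in the nucleus, against 791.1, 591.2 and 604.1 in the cord (-2.28 ± 0.15, adjusted p = 3.41e-09). Dcn (decorin) had 188.1, 199.8 and 203.3 against 1426, 949.9 and 856.5 (-2.42 ± 0.20), Ogn fell by 2.15 and Aebp1 by 2.92 on the log2 scale. Sparc was the member that rose (0.37 ± 0.13, adjusted p = 0.0441), and the list held no rise in 5 of the 6 fits that left out 1 array of 18 months. The summed signal of the 40 genes was 21050 to 22090 on the nucleus arrays and 37270 to 43050 on the cord arrays. Mylk, the smooth muscle light chain kinase, had 441.4, 390.7 and 409.1 against 3072, 3190 and 2977 (-2.90 ± 0.09, adjusted p = 7.14e-14), and S100a4, a calcium-binding protein of fibroblasts and white matter astrocytes, fell by 3.29 on the log2 scale. Itgb4, a laminin-binding integrin, had 163.9, 135.4 and 174.5 against 1118, 888.3 and 742.3 (-2.52 ± 0.17). Cp (ceruloplasmin), the copper-binding ferroxidase, gave -2.79, -2.56 and -1.71 on its 3 probe sets, with 2 of 3 nucleus arrays at the floor on the one that gave -2.79.

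Markers of tissue that a dissection can include were measured beside these results. Vascular genes had 10 falls and no rise among 24 tested (26 on the array, median -0.35), led by Tagln of smooth muscle (-2.31 ± 0.26) and Vwf of endothelium (-1.16 ± 0.17), and 6 falls without oculomotor replicate 3. Schwann cell and nerve root genes had 3 falls and 1 rise among 9 tested, and 5 falls without cord replicate 3; Pmp22 had 1183, 1262 and 1331 in the nucleus, against 3570, 2888 and 2757 in the cord (-1.28 ± 0.13), and Prx had 97.1, 80.7 and 63.1 against 329.6, 189.7 and 178.1. Their summed signal was 16510 to 16740 against 19720 to 23150. Blood genes had 3 falls among 4 tested, with Alas2 at 400.1, 240.9 and 531.7 against 777.9, 1079 and 1857 (-1.64 ± 0.33), and Hbb, which overlapped between the tissues, lost its call without any of 3 single arrays, at adjusted p = 0.0665 to 0.0974. The part that meninges, roots, vessels and blood cells of the cord samples play in the lower genes was not tested.

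Several markers of skeletal muscle and choroid plexus differed between arrays of the same tissue. The 33 muscle genes, of which 16 were tested, 4 fell and 1 rose (Car3, by 0.78 on the log2 scale, with no call without oculomotor replicate 2, cord replicate 1 or cord replicate 3, at adjusted p = 0.0813 to 0.0946), summed to 5463 to 6019 in the nucleus and 6554 to 12040 in the cord, with 15 and 9 of them at the floor on all arrays of the tissue. Acta1, skeletal actin, had 282.2, 265.1 and 283.9 in the nucleus, against 276.2, 1529 and 503.5 in the cord (-1.11, adjusted p = 0.237), and Ckm, muscle creatine kinase, had 106.1, 93.4 and 100.2 against 115.1, 687.9 and 276.7. Cord replicate 2 was the highest for both, and Ckm passed the test without cord replicate 1 (-2.13, adjusted p = 0.0184). Tnnc2, fast troponin C, was lower on every nucleus array, with 116.4, 103.4 and 103.8 against 399.8, 667.7 and 481.2 (-2.23 ± 0.30). With the mean of the muscle genes as a covariate 2170 probe sets were called, 1994 of them also called without it and in the same direction. Ttr (transthyretin), made by choroid plexus, had 1658, 194.4 and 601.2 in the nucleus, against 115.1, 136.9 and 148.5 in the cord (2.12, adjusted p = 0.0935), and it passed without oculomotor replicate 2 (2.91, adjusted p = 0.0366). With Ttr as a covariate 2091 were called, of which 2036 were shared. Of the 10 choroid and ependyma markers tested, Ttr included, 4 fell (S100a6, Igfbp2, Slc13a4 and Enpp2) and none rose. Ttr, though not called, was higher on every nucleus array than on any cord array.

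**Figure D4:**
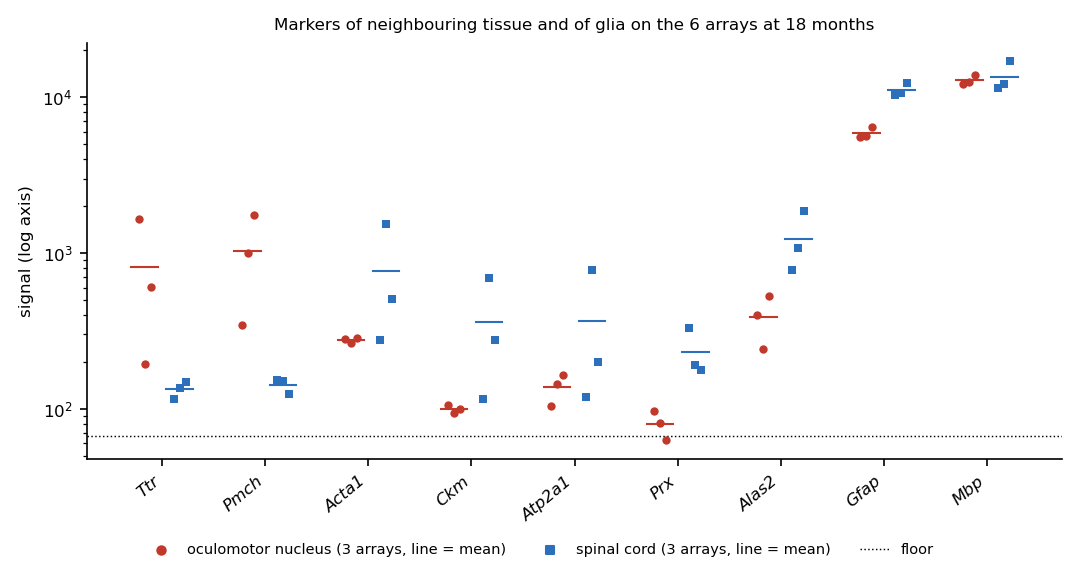
Signals (log axis) of markers of choroid plexus (Ttr), hypothalamus (Pmch), skeletal muscle (Acta1, Ckm, Atp2a1), Schwann cells (Prx), red cells (Alas2), astrocytes (Gfap) and myelin (Mbp) on the 3 oculomotor nucleus arrays (red circles, left) and the 3 spinal cord arrays (blue squares, right) at 18 months, with the mean as a line and the floor dotted. Ttr spans 194.4 to 1658 within the nucleus and Acta1 276.2 to 1529 within the cord.

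Energy metabolism differed in glycolysis more than in respiration. Of 23 glycolysis genes, all tested, 9 rose and 3 fell (median 0.20), and 1 fell without oculomotor replicate 3. Ldha, a lactate dehydrogenase subunit, had 1868, 1961 and 2013 in the nucleus, against 985.3, 1010 and 967.3 in the cord (0.98 ± 0.11, adjusted p = 1.59e-06), and Slc2a3, the neuronal glucose transporter, rose by 0.75 ± 0.12. Of 66 oxidative phosphorylation genes, all tested, 1 rose and none fell (1.52%, median 0.09), which is below the background of 25.3%. That member, Cox7b, lost its call without oculomotor replicate 3 (0.27, adjusted p = 0.0781). Proteasome genes, with 1 of 26 called, and ribosomal protein genes, with 3 of 28 lower and 1 of 28 when any of 5 single arrays was left out, were likewise under the background.

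Of 30 antioxidant and metal-binding genes tested (33 on the array), 12 fell and 1 rose (median -0.24). Gpx1, glutathione peroxidase, had 987.1, 1066 and 1036 in the nucleus, against 2351, 2731 and 2076 in the cord (-1.20 ± 0.14), Mgst1, a microsomal glutathione transferase, fell by 1.40 and Nqo1, a quinone reductase, by 0.98 on the log2 scale. Prdx6 (peroxiredoxin 6) was the member that rose (0.58 ± 0.13). Among 26 chaperones 5 fell and 3 rose (30.8%, against 25.3% of all genes). Hspb1, a small heat shock protein abundant in motor and sensory neurons, had 336.4, 269.1 and 214.0 against 2085, 2157 and 1629 (-2.85 ± 0.24, adjusted p = 6.01e-08). Hspa2 fell by 1.21 and Hspb8 by 0.88 on the log2 scale. Cholesterol synthesis genes had 2 rises and 4 falls among 21 tested (28.6%). Immediate early genes had 1 and 1 among 10 (20%), and clock genes 1 and 1 among 12 (16.7%). These shares are near or under the background of 25.3%. The clock gene Bhlhe41 had 2622, 2614 and 2366 against 4132, 3910 and 3750 (-0.63 ± 0.09).

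The same tissues at 6 and 30 months were compared on other arrays, which enter no group mean of 18 months but share the fit, and so the floor, the filter and the estimate of spread behind every p. Of the 2727 probe sets called at 18 months, 2669 (97.9%) had the same sign at 6 months and 1868 (68.5%) were also called there, and 2690 (98.6%) had the same sign at 30 months and 1683 (61.7%) were also called. Of all probe sets 24.4% were called at 6 months and 19.2% at 30 months, where 8.69% were higher and 10.5% lower in the nucleus. At all 3 ages 1432 were called in the same direction, and 607 were called at 18 months alone. Across the 11070 probe sets the log2 difference at 18 months correlated with that at 6 months at r = 0.845 and with that at 30 months at r = 0.858, a description across probe sets of arrays that share tissue and platform. Th differed by 4.50, 4.78 and 4.70 on the log2 scale at 6, 18 and 30 months, and Chat by -1.27, -1.68 and -1.42.

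**Figure D5:**
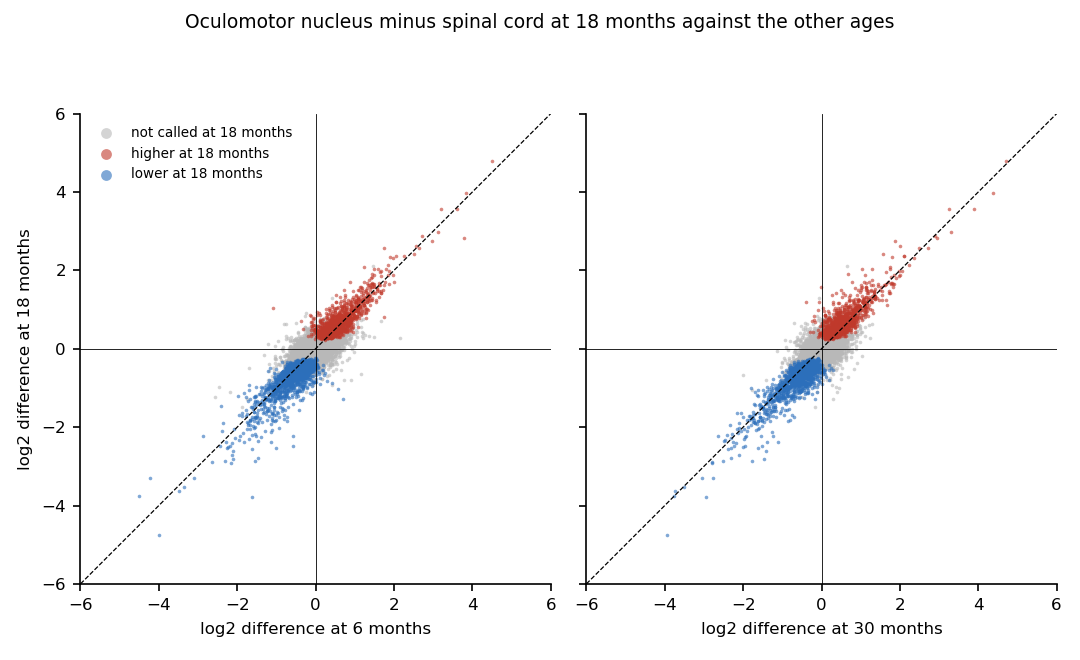
Log2 difference, oculomotor nucleus minus spinal cord, at 18 months (y axis) against that at 6 months (left panel) and 30 months (right panel) for 11070 probe sets, coloured by the call at 18 months, with the line of equality dashed. Of the called probe sets 97.9% and 98.6% lie on the same side of 0 at 6 and 30 months.

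No probe set showed a tissue difference at 18 months that was called as different from that at another age. Against 6 months 0 of 11070 passed limma's interaction test after adjustment and 572 (5.17%) had an unadjusted p under 0.05; against 30 months 0 passed and 387 (3.50%) did before adjustment. The smallest p against 6 months belonged to Lgals3. It had 141 ± 33.4 in the nucleus at 18 months, against 1937 ± 443 in the cord, and 141 ± 3.55 against 436 ± 34.6 at 6 months (SD, n = 3 each), an interaction of -2.15 ± 0.38 on the log2 scale with an adjusted p of 0.211. Without cord replicate 3 of 18 months that adjusted p was 0.0246, the interaction of Gpnmb (-2.01) had 0.0269, and 5 probe sets in all were called. Microglia genes had medians of -0.60, -1.04 and -0.61 at 6, 18 and 30 months, complement genes -0.79, -1.28 and -0.94, and antigen presentation genes -0.43, -0.53 and -0.33, with no test of the change. Against 30 months RT1-Da had the smallest p (-1.34 ± 0.27, adjusted p = 1). Its nucleus signal was 429 ± 25.0 at 18 months and averaged 1059 at 30 months, while the cord had 3020 ± 462 and 2939.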

How the data were processed

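The 18 arrays were grouped by their labels, and tissue from 4 animals was combined into each RNA sample, per the labels' design text. That text names 4 replicates per group, where the labels give 3. The authors deposited linear signal intensity values from Affymetrix Microarray Suite 5.0, per the submitters' processing notes. Signals were scaled to a common 2% trimmed mean, floored at the pooled 20th percentile (66.4) and taken to log2. Of 15923 probe sets, less 57 controls, 11070 had a mean above the pooled 30th percentile (signal 114.1). limma 3.58.1 in R 4.3.3 was fitted to 6 group means over all 18 arrays with a mean-variance trend (12 residual and 7 prior degrees of freedom), and p-values were adjusted over all 11070 (Benjamini-Hochberg, threshold 0.05). The number of arrays limits the precision. Data for the 18-month comparison were simulated on 11070 probe sets, of which 200 were changed, fewer than the 2727 called here. In them 49.3%, 83.6% and 100% of changes of 1.5, 2 and 4-fold were recovered, with 15 false calls. Recovery can differ where more probe sets change. An exact permutation test of 3 against 3 arrays cannot go below 0.1.

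Genes came from the platform annotation: 12789 probe sets named 1 gene, 12754 of them through an Entrez identifier, 312 named several and 2822 are unnamed here. For lists, the probe set with the highest mean over 18 arrays stood for a gene. The comparison and the gene lists were chosen with earlier results of these data known. Genes were named by a rule: the 15 largest rises and falls called without overlap, up to 4 members of each list with the smallest p, all called Hox and regional factors, 9 fixed markers, and the 10 smallest interaction p-values at each age. Other genes named were chosen after their values were seen. Alternatives covered scaling, floor, filter, arrays used, trend, array weights, covariates, a replicate block and call rules.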

Additional observations from a re-analysis of the deposited data

How the results depend on the processing

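At 18 months the count of called probe sets (2727) lay between 2091, with Ttr as a covariate, and 3895, with array weights, and between 2163 and 2343 when 1 array was left out. The count of higher ones was 1899 with array weights, against 1246. A rule like the study's, no overlap and over 1.70-fold, gave 929, and limma's test against 1.5-fold gave 333. The study's own difference calls in every pair of arrays need probe-level data and were not run. Median centring put 52.9% of calls on the higher side, against 45.7%. At 6 months 1278 were called, against 2705, with the muscle genes as a covariate. Differences between 18 and 6 months, of which none was called, numbered 1 with array weights, 11 without the 4 arrays under -5 on the main principal component (a one-sided limit chosen after seeing the data) and 0 to 5 when 1 array was left out. Between 18 and 30 months they numbered 1 with no filter, 1 with array weights, 14 without those 4 arrays and 0 to 5 when 1 was left out. The 5 in each case came without cord replicate 3, and the cause was not tested. No called difference of a gene named in the results, on the probe set that stood for it, changed sign under the alternatives run. Same-numbered arrays of 18 months did not deviate together (r = 0.026, -0.038 and -0.017), nor did those of 6 months (0.014 to 0.087), while those of 30 months had r = 0.103, 0.189 and 0.455. Since not every pair was over 0.1, the numbers were not taken as pairs. With the replicate number as a block 2924 were called, 2614 of them shared with the same sign, and 0 differences between ages. Pooling, 3 arrays a group and signals near the floor limit what small or dim differences can show.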

Other observations

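Probe sets of 1 gene were called in both directions for 3 genes. Aqp4, the water channel of astrocytes, averaged 3484 ± 250 in the oculomotor nucleus and 4895 ± 821 in the cord on its brightest probe set, and 750 ± 56.9 against 458 ± 50.2 on another (SD, n = 3 each), log2 differences of -0.48 and 0.71. Dclk1, a microtubule-associated kinase, averaged 744 ± 40.3 against 2106 ± 53.3 on one probe set and 569 ± 7.45 against 391 ± 11.0 on the other, differences of -1.50 and 0.54. Tpm3, a tropomyosin, rose by 0.86 on one probe set and fell on 4 others. A single value per gene would hide these differences, and which transcripts the probe sets read was not tested.

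Rbm24, an RNA-binding protein of muscle, was the 1 probe set called at both 18 and 6 months in opposite directions. Its log2 difference, oculomotor nucleus minus cord, was -1.08 at 6 months, 1.03 at 18 months and 0.03 at 30 months, and the interaction between 18 and 6 months (2.11) had an adjusted p of 0.776.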
